A study of Mus musculus with 2 samples.

Results

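Kinesins are motor proteins that use ATP to walk along microtubules or to take microtubule ends apart. Some of them build the mitotic spindle, move chromosomes and position the cleavage furrow in dividing cells, and their mRNAs are known to accumulate in G2 and mitosis. Others carry vesicles, organelles and proteins through the cytoplasm or into cilia in cells at any stage of the cycle. An erythroblast still divides as it begins to mature, and it later stops dividing and expels its nucleus.

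The kinesin motor genes were taken as the rows whose gene symbol begins with Kif followed by a digit or the letter c. This gave 42 of the 25791 rows of the table. Of these, 12 rows were assigned to mitotic kinesins, 17 to transport kinesins and 11 to kinesins with other or less settled roles. The remaining 2 rows, Kif4b and Kifc5c, are named as pseudogenes in RefSeq and were kept apart as copies. Assignment was by known function, but it was made with earlier results of these data known. The copies were set apart after the data were seen.

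The RNA came from cultured mouse ESREs, or Extensively Self Renewing Erythroblasts, which are red cell precursors able to multiply for long periods outside the body. Both groups share the C57/bl6 genetic background. Cells of the expansion group were proliferating, while those of the maturation group had been matured for 1 day. The table held 1 value per row and group in FPKM, which scales fragments by transcript length and by library size, so levels of different genes can be set side by side. There was no replicate value, SD or test for any difference below, and the depth is unknown. Whether any difference is larger than the spread between cultures cannot be told from these values.

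All 9 erythroblast markers examined reached 1 FPKM in a group, though Alas2 and Slc4a1 did so in maturation only, with 0.975 and 0.0744 FPKM in expansion. Their summed level was 3085 FPKM in expansion and 13326 in maturation. Most of it came from the globin genes Hba-a1, at 1951 and 8370 FPKM, and Hbb-b1, at 1059 and 4739 FPKM. Mast cell markers reached 1 FPKM for 3 of 6 genes and summed to 15.7 and 1.52 FPKM. Megakaryocyte markers did so for 4 of 6 and summed to 22.8 and 4.16 FPKM. Not all members of these lists were lower in maturation. The mast cell gene Mcpt4 was at 0.00971 and 0.715 FPKM. The megakaryocyte genes Gp9 and Vwf were at 0.756 and 1.84 FPKM and at 0.00475 and 0.0383 FPKM. Among macrophage markers 1 of 5 reached 1 FPKM, and they summed to 1.34 and 0.596 FPKM. No lymphocyte (3), granulocyte (4) or stromal and endothelial (4) marker reached 1 FPKM, and the sums of these 3 lists were at most 0.619 FPKM. Of 3 neuronal markers with a row, Snap25 and Syt1 were at no more than 0.143 FPKM, while Tubb3, a tubulin gene, was at 99.8 and 138 FPKM. The part of these other cell types in the kinesin differences was not tested.

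The mitotic kinesins stood at higher FPKM after 1 day of maturation, whereas the expressed transport kinesins stood lower by about as much as a typical expressed row. All 12 mitotic rows had a higher value in maturation, from 1.01-fold for Kif20b to 2.27-fold for Kif14, which reached 1 FPKM in maturation only. The summed level of the 12 rows was 40.1 FPKM in expansion and 59.7 in maturation (1.49-fold). Their shared direction rests on the assignment. Kif2a, which also acts at spindle poles but was placed under other roles, was lower in maturation, at 4.55 and 3.49 FPKM. Kif2b, likewise placed there and counted as mitotic in an alternative below, was weak and also lower, at 0.207 and 0.156 FPKM. The 17 transport rows summed to 10.3 and 6.87 FPKM (0.667-fold), and both that reached 1 FPKM, Kif5b and Kif3b, were lower, as were 74.1% of all expressed rows. In bulk RNA, more cells in G2 and mitosis and more mitotic kinesin RNA per cell cannot be told apart.

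A row counted as expressed at 1 FPKM or more in at least 1 group, which left 18 of the 42 kinesin rows and 9263 rows of the whole table. All 12 mitotic rows and both copies passed, against 2 of 17 transport and 2 of 11 other rows. Kif14 and Kif24 passed through their maturation value alone, and Kif1c and Kif3a lay just under the limit at 0.977 and 0.940 FPKM in expansion. Ratios below are log2 of (maturation FPKM + 1) over (expansion FPKM + 1), which understates differences of weakly expressed genes, while folds are quotients of the FPKM values. The median log2 ratio of the 9263 expressed rows was -0.25, so a typical row stood slightly lower in maturation, and 25.9% of expressed rows had a ratio above 0. A ratio of at least 1 was reached by 3.13% of expressed rows and a ratio of -1 or less by 6.70%, against 0 of the 18 kinesin rows in either direction, although Kif14 was past 2-fold in FPKM itself. The 24 rows under 1 FPKM in both groups could not reach such a ratio with this pseudocount. The 12 mitotic rows had a median log2 ratio of 0.53 and a range of 0.01 to 0.69. The 2 expressed transport rows had ratios of -0.33 and -0.20, on either side of the median of all expressed rows.

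**Figure D1:**
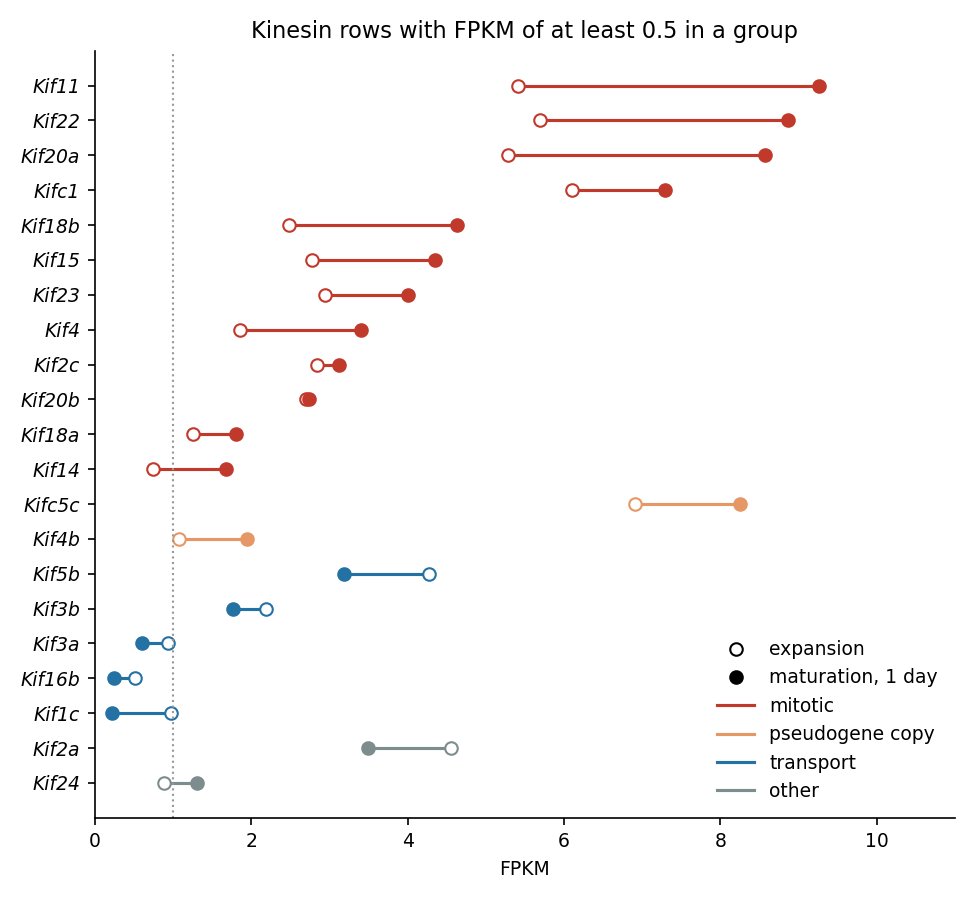
FPKM (horizontal axis) of each kinesin row that reached 0.5 FPKM in a group, with open circles for expansion and filled circles for maturation, 1 value each, and a dotted line at 1 FPKM. The filled circle lies to the right for all mitotic rows, with the circles of Kif20b nearly on top of each other, and to the left for Kif5b, Kif3b, Kif3a, Kif16b, Kif1c and Kif2a.

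Kinesins that build the bipolar spindle were among the highest rows. Kif11, also called Eg5, crosslinks antiparallel microtubules and slides them apart so that the spindle poles separate (chromosome 19, mm9 37450893 to 37496349). Its level was 5.41 FPKM in expansion and 9.26 in maturation, 1.71-fold higher. It was the fourth highest kinesin row in expansion and the highest in maturation. Kif15, a second plus-end motor that helps keep the spindle bipolar (chromosome 9, mm9 122860199 to 122927851), was at 2.77 and 4.35 FPKM, 1.57-fold higher. The quotient of Kif11 over Kif15 was 1.95 in expansion and 2.13 in maturation, so these partly overlapping motors stood in a similar proportion in both groups. The row named Kifc1, after a minus-end motor that pulls poles together and bundles microtubules, was at 6.10 and 7.29 FPKM, 1.20-fold higher. Its listed position is not that of Kifc1, as described below.

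Motors of chromosome arms and microtubule ends differed in how far they stood apart. Kif22, also called Kid, sits on chromosome arms and pushes them away from the poles (chromosome 7, mm9 134171245 to 134185934). Its FPKM was 5.69 in expansion and 8.87 in maturation. Kif4, a chromokinesin that also limits microtubule growth in the midzone (chromosome X, mm9 97821404 to 97922610), was at 1.86 and 3.40 FPKM, 1.83-fold higher. Kif18b, which shortens astral microtubules, was at 2.48 and 4.64 FPKM and had the highest log2 ratio of the 18 expressed kinesin rows, 0.69. Kif18a, which damps the swings of chromosomes at the metaphase plate, was at 1.26 and 1.81 FPKM. Kif2c, also called MCAK, is the depolymerase that frees wrongly attached microtubules from kinetochores, and it was at 2.84 and 3.12 FPKM, a difference of only 1.10-fold. Kif18b stood 1.97-fold above Kif18a in expansion and 2.56-fold above it in maturation.

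Motors of the midzone and of cell cleavage differed among themselves. Kif20a, also called MKLP2, brings the Aurora B passenger complex to the midzone (chromosome 18, mm9 34758269 to 34811390), with an FPKM of 5.29 in expansion and 8.57 in maturation. Kif23, or MKLP1, is the motor subunit of centralspindlin, the complex that marks the cleavage site (chromosome 9, mm9 61765084 to 61794606), and it was at 2.94 and 4.002 FPKM. Kif14, which works with citron kinase at the end of cytokinesis, was at 0.742 and 1.68 FPKM and had the highest fold of the mitotic rows. Kif20b, a relative of Kif20a with a part in late cytokinesis, was at 2.70 and 2.74 FPKM. Kif20a stood 1.96-fold above Kif20b in expansion and 3.13-fold above it in maturation, a wider gap between 2 members of the same subfamily.

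Taking 1.5-fold in FPKM as a limit, chosen after the values were seen, 7 of the 12 mitotic rows reached it, against 8.15% of all expressed rows. These were Kif14, Kif18b, Kif4, Kif11, Kif20a, Kif15 and Kif22. Of these, Kif14 counted as expressed through its maturation value alone, at 0.742 FPKM in expansion and 1.68 in maturation. Kif18a, Kif23, Kifc1, Kif2c and Kif20b lay between 1.01-fold and 1.44-fold. All 12 nevertheless lay above the median ratio of expressed rows.

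Several kinesin rows cannot be read as 1 gene. Kif20a is listed at 1 locus of 53122 bases together with Brd8 and Cdc23, whereas the RefSeq gene spans 8654 bases. In GENCODE transcripts, 31.2% of the 50-base words of the longest Kif20a transcript also occur in another gene, and Cdc23 was the only one found. Cdc23 was at 4.08 and 3.81 FPKM and Brd8 at 4.43 and 4.21, so these neighbours were lower in maturation while Kif20a was higher. Kif2a shares 23.0% of the 50-base words of its longest transcript with other genes, Dimt1 first among them. Kif4 shares 16.2% with other genes, Pdzd11 first among them. The Kifc1 row spans 15489 bases, the length that RefSeq gives for Kifc5b and not the 14970 bases it gives for Kifc1. Its position is also not that of Kifc1. The row lies on chromosome 17 at mm9 27054036 to 27069524, while RefSeq places the Kifc1 promoter at GRCm38 33890584 to 33890883. For comparison between builds, the Kif6 row on the same chromosome starts at mm9 49754497 and its promoter at GRCm38 49614922. The sequences of the 2 genes are similar. Of the 50-base words of Kifc1, 47.6% occur in other genes, and Kifc5b holds the most of them. The row may therefore not measure Kifc1 itself, or may hold reads of both.

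The copies stood in nearly constant proportion to the genes they resemble. Kifc5c, the row named after a processed pseudogene, had an FPKM of 6.91 in expansion and 8.25 in maturation. It was the highest of all 42 rows in expansion. The row spans 92307 bases, however, whereas RefSeq gives the pseudogene 1818, so it may not measure the pseudogene alone. The quotient of Kifc5c over Kifc1 was 1.13 in both groups. Kif4b, the row of the pseudogene Kif4-ps, was at 1.08 and 1.95 FPKM, and the quotient of Kif4 over Kif4b was 1.73 and 1.74. Of the 50-base words of these pseudogene transcripts, 4.46% for Kifc5c and 0.415% for Kif4b occur unchanged in a transcript of another gene. How far reads were divided between gene and copy was not tested. With both copies added, the summed mitotic level was 1.45-fold higher in maturation.

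Most promoters of the mitotic kinesins examined carried a CHR letter pattern, and 7 of 11 also held CCAAT. Many genes of G2 and mitosis are known to hold CCAAT boxes, bound by NF-Y, and a CHR, or cell cycle genes homology region, near the start site, bound by the MuvB complexes. RefSeq promoters of GRCm38.p6, with 250 bases before and 50 after each start, were found for 32 of the 40 rows that are not copies, 11 of them mitotic and 11 transport. Kif20a and Kif5b are not among them, so Kif3b is the single expressed transport kinesin with a promoter here. The searched patterns were CCAAT and, for the CHR, TTTGAA or TTTAAA, on both strands, with a gene counted when any of its starts held a match. A CHR pattern was present for 10 of 11 mitotic kinesins, 1 of 11 transport kinesins and 2 of 10 others, against 22.3% of the 5758 expressed rows with a promoter and 30.6% of all 27025 genes. CCAAT was present for 7 of 11 mitotic and 3 of 11 transport kinesins, against 44.7% of expressed rows. Both patterns together occurred for 7 of 11 mitotic and 0 of 11 transport kinesins, against 9.93% of expressed rows. The E2F patterns TTTGGCGC and TTTCCCGC were present for 2 of 11 mitotic kinesins, Kif15 and Kif18a, and for 4.05% of expressed rows. A match is a description of the letters and does not show that a factor binds there. RefSeq places the Kifc1 promoter at Kifc1 and not at Kifc5b, while the row named Kifc1 lies at another position. Without it the CHR count was 9 of 10, and CCAAT alone and both patterns together were each present for 6 of 10. The promoter of Kifc5b held CCAAT and a CHR pattern.

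The windows below run from 100 bases before to 25 bases after the start and are shown for 8 mitotic kinesins because the pattern lies close to the start in each of them. Capitals mark matches of CCAAT and of the CHR patterns, in either orientation.
Kif11, chr19:37376282-37376406, plus strand: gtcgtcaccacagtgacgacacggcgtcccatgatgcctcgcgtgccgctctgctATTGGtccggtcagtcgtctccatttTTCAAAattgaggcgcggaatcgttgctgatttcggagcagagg
Kif22, chr7:127042396-127042520, minus strand: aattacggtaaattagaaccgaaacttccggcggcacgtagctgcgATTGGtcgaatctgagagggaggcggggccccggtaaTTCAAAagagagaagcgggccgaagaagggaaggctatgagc
Kif15, chr9:122950981-122951105, plus strand: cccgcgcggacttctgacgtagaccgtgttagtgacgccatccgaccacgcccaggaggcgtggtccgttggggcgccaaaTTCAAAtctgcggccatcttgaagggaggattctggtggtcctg
Kif18b, chr11:102925100-102925224, minus strand: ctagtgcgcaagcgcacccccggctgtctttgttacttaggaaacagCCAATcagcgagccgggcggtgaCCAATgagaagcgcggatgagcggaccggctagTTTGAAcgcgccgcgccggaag
Kif23, chr9:61946775-61946899, minus strand: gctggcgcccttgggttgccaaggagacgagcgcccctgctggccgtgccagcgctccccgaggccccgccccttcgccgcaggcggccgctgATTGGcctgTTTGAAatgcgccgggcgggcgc
Kif4, chrX:100625965-100626089, plus strand: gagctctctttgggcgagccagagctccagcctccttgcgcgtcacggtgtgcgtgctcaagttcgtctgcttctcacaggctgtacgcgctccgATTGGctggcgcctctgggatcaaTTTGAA
Kif20b, chr19:34922258-34922382, plus strand: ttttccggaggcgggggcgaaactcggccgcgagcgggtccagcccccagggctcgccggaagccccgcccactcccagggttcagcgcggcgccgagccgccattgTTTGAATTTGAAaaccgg
Kif14, chr1:136467748-136467872, plus strand: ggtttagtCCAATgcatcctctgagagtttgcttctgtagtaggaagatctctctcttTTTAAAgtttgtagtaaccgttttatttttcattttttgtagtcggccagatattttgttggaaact
Within these windows a CHR pattern was present for 9 of 11 mitotic kinesins, or 8 of 10 without Kifc1, and for 7.83% of expressed rows. The CHR pattern of Kifc5b lay outside this window. The window was chosen after the matches were seen. In Kif11 the inverted CCAAT box lies at -45 to -41 and the CHR pattern at -19 to -14, and Kif22 has them at -54 to -50 and -17 to -12. In Kif23 they flank the start, at -7 to -3 and at 3 to 8. Kif20b holds 2 adjoining TTTGAA and no CCAAT in the whole 300 bases, and Kif15, Kif18a and Kif2c hold no CCAAT there either. Kif18a had no CHR pattern, and the TTTGAA of Kif2c lay at -103 to -98, just outside the window.

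For contrast, windows of the same length are given for 2 transport kinesins, the expressed Kif3b and Kif1c, the transport row with the lowest log2 ratio.
Kif3b, chr2:153291316-153291440, plus strand: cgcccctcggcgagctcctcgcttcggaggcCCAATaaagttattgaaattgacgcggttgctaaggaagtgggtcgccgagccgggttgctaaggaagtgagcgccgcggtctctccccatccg
Kif1c, chr11:70700448-70700572, plus strand: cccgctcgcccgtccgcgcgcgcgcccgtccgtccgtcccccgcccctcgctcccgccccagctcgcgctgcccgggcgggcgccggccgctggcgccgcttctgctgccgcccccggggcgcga
Kif3b holds a CCAAT box and no CHR pattern, and Kif1c holds neither. The 1 transport kinesin with a CHR pattern was Kif1a, at the second of its 2 listed starts.

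Among transport kinesins, expression was concentrated in Kif5b and Kif3b. Kif5b is the widely expressed heavy chain of conventional kinesin, which carries mitochondria, lysosomes and vesicles outwards (chromosome 18, mm9 6201003 to 6241522). Its FPKM was 4.27 in expansion and 3.19 after maturation, 0.746-fold. Its relatives Kif5a and Kif5c, known from neurons, were at 0.0492 and 0.0338 FPKM and at 0.0951 and 0.0808 FPKM. Kif11 was 1.26-fold above Kif5b in expansion and 2.90-fold above it in maturation.

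Kif3a and Kif3b form the motor pair of heterotrimeric kinesin, which carries cargo in the cytoplasm and into cilia. Kif3b was at 2.19 and 1.77 FPKM, and Kif3a at 0.940 and 0.608 FPKM. Kifap3, the non-motor subunit of the same complex, was at 0.0914 and 0.0305 FPKM, so its level was far below that of both motor subunits in either group. Kif3c and Kif17, the other members of the family, were at no more than 0.126 FPKM, and Kif3c shares its listed locus with 1110002L01Rik.

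Among the transport rows just under 1 FPKM, Kif1c differed most. This motor of vesicles and integrin-bearing carriers had 0.977 FPKM in expansion and 0.215 FPKM in maturation, 4.54-fold lower in FPKM and -0.70 as a log2 ratio. Kif16b, a motor of early endosomes, was at 0.510 and 0.249 FPKM. Kif21b was at 0.314 and 0.105 FPKM, Kif1b at 0.181 and 0.0497, and Kif13b at 0.264 and 0.219. Kifc2 was at 0.216 and 0.161 FPKM. Kif1a, Kif13a, Kif21a and Kifc3 were all under 0.05 FPKM in both groups, and no direction can be read at such levels. Kif17 was at 0.0885 and 0.102 FPKM. Of 11 kinesin rows whose higher value lay from 0.1 to under 1 FPKM, 10 were lower in maturation, against 73.7% of the 3501 rows of the table in that range. The lower values of weak kinesin rows therefore lie in the direction that most weak rows took.

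**Figure D2:**
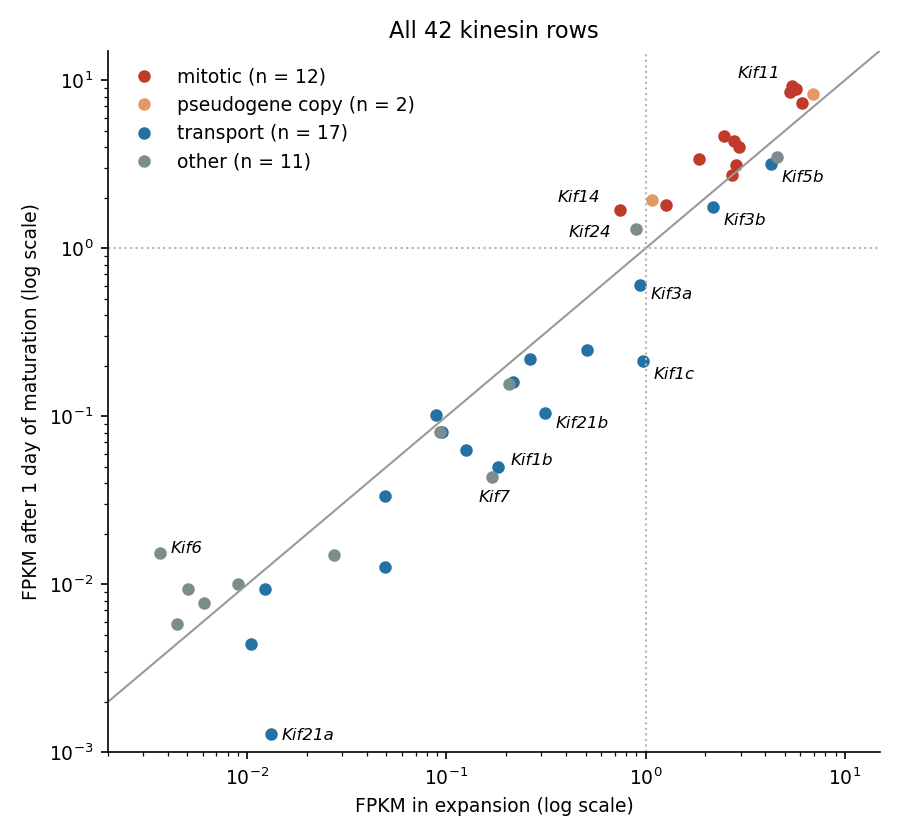
FPKM in maturation against FPKM in expansion for all 42 kinesin rows, both on log scales, with the line of equal values and dotted lines at 1 FPKM. Mitotic rows and copies fill the upper right above the line, and the transport rows Kif5b, Kif3b, Kif3a and Kif1c lie below it.

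Kinesins with other roles were mixed. Kif2a, a microtubule depolymerase that acts at spindle poles and in interphase, had an FPKM of 4.55 in expansion and 3.49 in maturation, lower as Kif5b and Kif3b were. Kif2a stood 1.60-fold above the mitotic depolymerase Kif2c in expansion and 1.12-fold above it in maturation. Kif24, which acts at the centriole and restrains cilium formation, was at 0.891 and 1.303 FPKM. Kif2b was at 0.207 and 0.156 FPKM and Kif7, a regulator of Hedgehog signalling at cilia, at 0.169 and 0.0436 FPKM, although Kif7 shares its listed locus with 5730590G19Rik. Kif9, Kif26b, Kif6, Kif19a, Kif27, Kif12 and Kif26a were under 0.1 FPKM in both groups, and at such levels no direction can be read.

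The make-up of kinesin RNA differed between the groups. The 42 rows summed to 64.4 FPKM in expansion and 81.9 in maturation. Mitotic rows held 62.3% of this sum in expansion and 72.9% in maturation, and transport rows held 16.0% and 8.39%. The other rows held 9.27% and 6.27%, and the copies 12.4% in both groups.

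**Figure D3:**
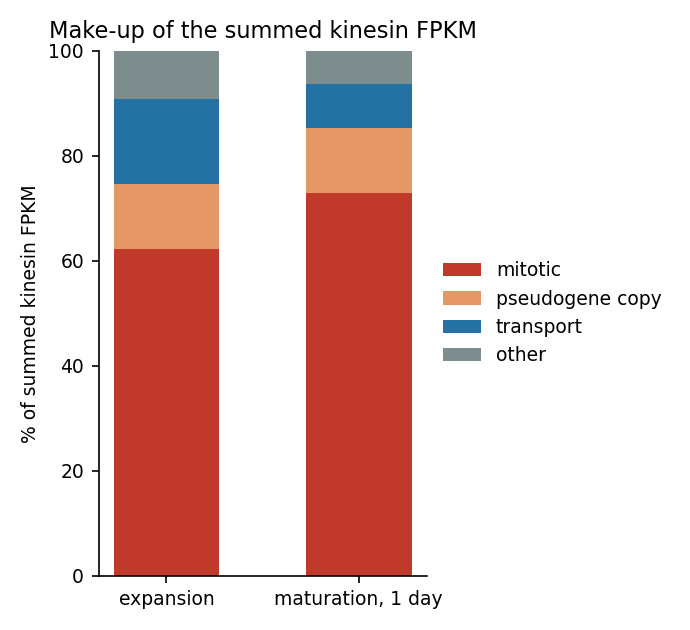
Percentage of the summed kinesin FPKM (vertical axis) held by mitotic, copy, transport and other rows in each group, 1 value per group. The mitotic part is 62.3% in expansion and 72.9% in maturation, and the transport part 16.0% and 8.39%.

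Partner genes of the motors were looked up in 4 lists of 87 entries in all, of which 85 matched by symbol and 2 by a RefSeq synonym. Of the 14 expressed genes of the spindle midzone and passenger complex, the median ratio was 0.40, with 11 ratios above 0, against 25.9% of expressed rows, and 2 log2 ratios of at least 1. Racgap1, the partner of Kif23 in centralspindlin, was at 3.34 and 5.47 FPKM, and the quotient of Kif23 over Racgap1 was 0.880 and 0.732. Prc1, the microtubule bundler that recruits Kif4, was at 5.14 and 11.4 FPKM. Birc5 was at 16.1 and 42.4 FPKM, Cdca8 at 12.1 and 20.7 and Aurkb at 8.47 and 11.2, the passenger proteins that Kif20a carries. The mitotic kinase gene Plk1 was at 8.29 and 13.04 FPKM. Cep55, a gene of the last step of cytokinesis that stayed under 1 FPKM, lay in the other direction at 0.835 and 0.00574 FPKM.

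The 22 spindle assembly partners, all expressed, had 18 ratios above 0, against 25.9% of expressed rows, and a median of 0.41. Aurka, the spindle pole kinase, was at 4.94 and 12.3 FPKM, the cyclin gene Ccnb2 at 11.2 and 21.8, and the kinetochore gene Nuf2 at 4.61 and 8.96. Cenpe, a kinetochore kinesin whose symbol falls outside the rule, was at 2.06 and 3.18 FPKM, 1.54-fold higher. Clasp2, a microtubule stabiliser, had 1.92 FPKM in expansion and a listed 0 after maturation, so no fold is given.

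Adaptors and cargo partners of transport kinesins had 11 of 12 expressed members below 0, against 74.1% of expressed rows, and a median of -0.32. Klc1, a light chain of conventional kinesin, was at 3.09 and 2.15 FPKM, and Klc2, Klc3 and Klc4 were under 1 FPKM in both groups. The row 2510003E04Rik, which RefSeq names Kifbp, encodes a protein that binds motor domains and blocks them from microtubules. It was at 5.24 and 2.08 FPKM, and it was the single expressed member with a log2 ratio of -1 or less. Arl8b, which links lysosomes to kinesin, was at 18.4 and 10.2 FPKM and Mapk8ip3 at 2.80 and 1.70. Trak2, an adaptor that ties mitochondria to conventional kinesin, lay in the other direction, at 2.80 and 7.57 FPKM, a log2 ratio of 1.17.

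Dynein and dynactin are the minus-end counterpart of the transport kinesins. Of 25 expressed members 10 had a ratio above 0, against 25.9% of expressed rows, and 15 had one below 0. Their median log2 ratio was -0.13, 18 of the 25 lay above the median of expressed rows, and none had a log2 ratio of 1 or more or of -1 or less. Dynlt3 was at 3.97 and 1.98 FPKM, Dynll2 at 7.19 and 4.16, Dync1li1 at 4.51 and 2.98 and Ndel1 at 4.73 and 3.30. The heavy chain gene Dync1h1 was at 3.17 and 2.74 FPKM.

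**Figure D4:**
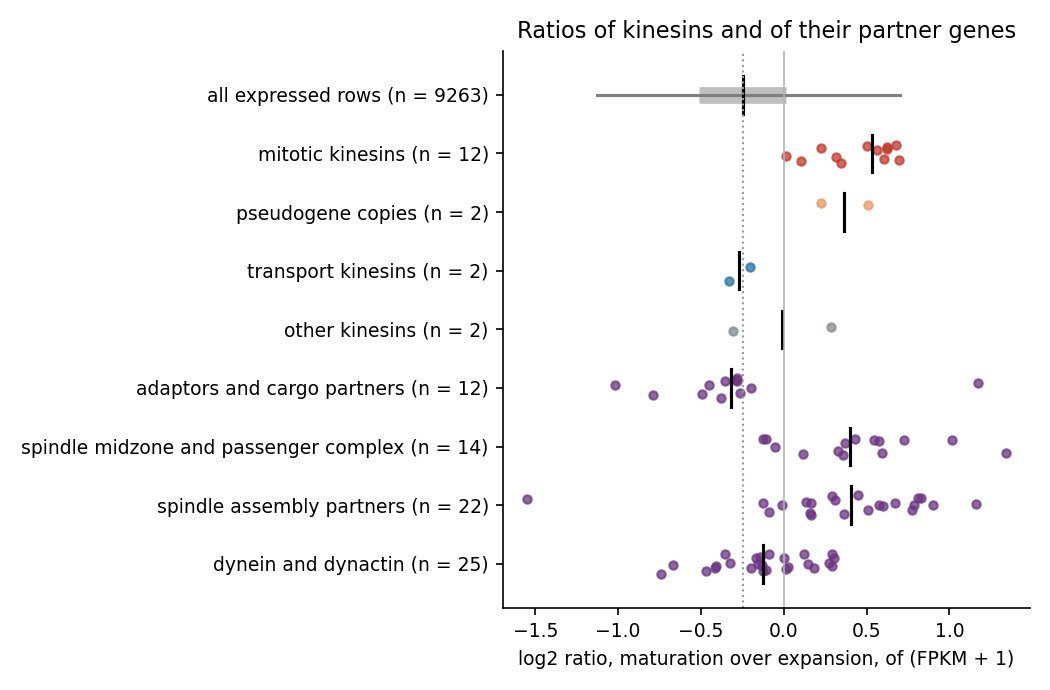
Log2 ratio of (FPKM + 1), maturation over expansion, for the expressed kinesin rows by role and for 4 lists of partner genes, 1 point per row, with black bars at medians. For all 9263 expressed rows the grey line spans the 5th to 95th percentile and the box the quartiles, the dotted line marks their median of -0.25, and the point at the far left is Clasp2, listed at 0 in maturation.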

How the data were processed

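The authors deposited 1 table of FPKM values with 1 column per group, per the file headers. The submitters' processing notes name Cuffdiff 2.0.2 and mm9. The series text mentions duplicates, while pooling, the aligner and the annotation remain not given in the sources used here. Each column was treated as the authors' value for its group. Start positions are given counted from 1, because reading the listed start as counted from 0 gave the RefSeq length for 182 of 385 microRNA rows, and reading it as counted from 1 gave it for 0. With 1 value per group no test was made.

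Log2 ratios used a pseudocount of 1, expression was 1 FPKM in at least 1 group, and a log2 ratio of 1 counted as 2-fold (Python 3.11.15, pandas 2.3.3). The calculation was tested on simulated data. The kinesins, their roles, the partner lists and the tests were chosen with earlier results of these data known. Kif4b and Kifc5c were set apart after the table was seen. Every kinesin row is accounted for, those at 1 FPKM with both values, and up to 4 expressed partners per list with the largest absolute ratio are named, besides Cep55 and partners of a named motor chosen after the values were seen. Sequences are RefSeq promoters of GRCm38.p6, and shared words of 50 bases were counted in GENCODE M21 transcripts of GRCm38. No protein sequence was used.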

Additional observations from a re-analysis of the deposited data

How the results depend on the processing

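The median log2 ratio of the mitotic kinesins (0.53) stayed above 0 under every alternative tried. All 12 rows were higher in maturation, and centring and rescaling both raise the ratios, while Kif2a alone could not outweigh the rest. No alternative could therefore turn the sign of this median, only change its size. It was 0.63 with a pseudocount of 0.1, 0.24 with 5, 0.58 for the 4 rows at 5 FPKM or more, 0.78 after centring on all expressed rows, 0.63 after rescaling without 550 short RNA rows, 0.50 with Kif2a and Kif2b counted as mitotic and 0.44 as a mean. In alternatives added after the data were seen, it was 0.50 with the copies included and 0.50 without Kif20a. The median of the transport kinesins (-0.27) stayed below 0. It was -0.35 and -0.13 with those pseudocounts and -0.067 over all 17 rows with no minimum. Both expressed rows, and 16 of the 17, were lower in maturation, so these settings could not turn its sign. After centring it was -0.021 and after rescaling -0.18, so the 2 expressed transport rows lay close to the median of expressed rows. No transport or other row reached 5 FPKM. The difference of mitotic minus transport medians (0.80) was 0.98 and 0.38 with the pseudocounts of 0.1 and 5, 0.60 with no minimum, 0.82 after rescaling, 0.77 with Kif2a and Kif2b as mitotic, 0.71 for means and, added later, 0.81 with a minimum of 0.5 FPKM. The median of the 2 expressed other kinesins (-0.01) has no stable sign. It was 0.065 and -0.036 with the pseudocounts, 0.0015 with no minimum, 0.24 after centring, 0.071 after rescaling and 0.28 without Kif2a. The count of rows at least 2-fold higher (0) was 1 with a pseudocount of 0.1, Kif14. The 18 expressed rows became 42 with no minimum and 5 at 5 FPKM. The summed mitotic fold (1.49) was 1.62 after rescaling, 1.41 with Kif2a and Kif2b and 1.45 with the copies, and the summed transport fold (0.667) was 0.724 after rescaling and 0.677 for conventional, heterotrimeric and Kif1-like members only. No paired analysis was possible because each group has 1 value. Depth is unknown, so the precision of rows under 1 FPKM cannot be given.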
